A study of Mus musculus with 6 samples.

Results

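The 6 genes described here are the 4 mouse tenascins, Tnc, Tnn, Tnr and Tnxb, and 2 genes for matrix proteins with fasciclin domains, Postn and Tgfbi. They were picked by symbol from the 49315 genes of a TPM table (transcripts per 1000000, a level scaled to gene length and library size). The table is of mouse embryonic fibroblasts, mixed cells grown out of whole embryos at E13.5. The 3 wild-type libraries (Acvr1+/+) were set against 3 libraries from cells with 1 R206H allele (Acvr1R206H/+), called R206H below. The BMP receptor gene Acvr1 with this allele is the classical cause of fibrodysplasia ossificans progressiva, in which bone forms in soft tissue. All 6 cultures were at passage 0, grown for 2 days in medium with 10% serum, and untreated as far as the labels say. The design text calls the libraries of a genotype biological replicates, and the sources used here do not say whether each came from 1 embryo or from a pool. The genotype labels name no promoter or cell type that limits the allele, and TPM values cannot show a base change, so the allele was not checked here.

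Tenascins are large matrix glycoproteins built from epidermal growth factor-like repeats, fibronectin type III repeats and a fibrinogen-like globe at the end of each arm. Tenascin-C is abundant in embryonic mesenchyme and returns in wounds, tenascin-N (also called tenascin-W) is known from developing bone and its periosteum, tenascin-R belongs to the central nervous system and tenascin-X spaces collagen fibrils in mature connective tissue. Periostin (Postn) and TGFBI are secreted proteins with repeated fasciclin domains that link collagen and fibronectin to integrins, and both are induced by transforming growth factor beta (TGF-beta) in many cell types.

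In R206H fibroblasts Tnn, Tgfbi and Postn were higher than in wild type in every library, by 12.8, 3.95 and 1.80 times in mean TPM, while Tnc, by far the most abundant of the 6, had the same mean in both genotypes. Tnxb was low, at or under 1.56 TPM, and Tnr was near the limit of detection. The genes were chosen with this contrast between the genotypes already known, and so their differences are given as a description, with standard errors (SE) and no p-value. A gene was tested if it reached 1 TPM in at least 3 libraries, which 14818 genes did. Of the 6 genes, Tnc, Tnn, Postn and Tgfbi were tested, each with more than 1 TPM in all 6 libraries, and Tnxb and Tnr were not. Tnn and Tgfbi were 2 of the 186 genes called higher by limma at a Benjamini-Hochberg adjusted p of 0.05, which is 1.26% of the genes tested. The 3 wild-type and 3 R206H values did not overlap for 3 of the 4, all with R206H above, and 17.9% of all genes tested had R206H above and 15% had it below in this way.

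The sequences just upstream of the transcription start are shown for Tnn, Tgfbi and Postn, whose R206H libraries lay above wild type, and for Tnc, whose libraries did not. They are from RefSeq on GRCm38.p6, read 5′ to 3′ on the strand of the gene. All 6 genes matched an entry, and where several starts were listed the one nearest to the start of the GENCODE M21 gene was taken. Capitals mark 6-base matches on either strand to TATAAA (the TATA box), GGCGCC (a GC-rich motif bound by SMADs) or GGAATG (the TEAD motif), and the other motifs searched are left in lower case. The Tnn stretch is chr1:160153581-160153825 on the minus strand and the Tgfbi stretch is chr13:56609336-56609522 on the plus strand. The Postn stretch is chr3:54360857-54361106 on the plus strand and the Tnc stretch is chr4:64047016-64047265 on the minus strand. The Tnn and Tgfbi runs stop 5 and 63 bases before the RefSeq start, where GENCODE places the first transcribed base.
Tnn: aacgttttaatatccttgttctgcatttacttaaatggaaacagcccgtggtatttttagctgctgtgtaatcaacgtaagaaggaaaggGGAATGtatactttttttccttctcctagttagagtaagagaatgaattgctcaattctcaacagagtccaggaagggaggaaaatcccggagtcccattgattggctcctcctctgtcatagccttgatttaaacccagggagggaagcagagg
Tgfbi: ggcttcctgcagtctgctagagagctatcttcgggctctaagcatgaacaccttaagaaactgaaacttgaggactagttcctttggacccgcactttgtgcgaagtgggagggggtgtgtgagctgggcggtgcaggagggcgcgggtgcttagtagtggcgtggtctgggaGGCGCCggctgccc
Postn: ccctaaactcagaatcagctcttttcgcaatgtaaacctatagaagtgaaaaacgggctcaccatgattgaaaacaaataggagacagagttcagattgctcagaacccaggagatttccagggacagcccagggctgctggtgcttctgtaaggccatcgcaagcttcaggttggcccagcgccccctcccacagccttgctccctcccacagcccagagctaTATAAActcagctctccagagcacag
Tnc: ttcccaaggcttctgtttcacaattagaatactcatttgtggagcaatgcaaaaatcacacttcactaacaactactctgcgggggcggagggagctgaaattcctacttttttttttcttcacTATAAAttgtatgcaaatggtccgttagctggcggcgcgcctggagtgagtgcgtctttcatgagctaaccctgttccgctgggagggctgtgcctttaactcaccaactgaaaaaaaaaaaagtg

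These 4 upstream stretches shared few of the letters searched. In the 250 bases before the RefSeq start, Postn held TATAAA at -26 to -21 and Tnc held it at -126 to -121, and 12.4% of 32817 RefSeq windows of that length held it. Tgfbi held GGCGCC at -77 to -72 (9.59% of windows) and Tnn held GGAATG at -160 to -155 (12.6%). Tnxb held 1 AP-1 motif, TGANTCA (6.75%). The E-box CANNTG, present in 66.2% of windows, was matched 3 times in Tnc, 1 time in Tnxb and in none of the other 4 genes. The SMAD motif GTCTAGAC (0.168%) and its shorter form CAGACA (17.1%) were matched in none of the 6. The share of G and C was 62.4% for Tgfbi, 52% for Postn, 44.8% for Tnc and 42% for Tnn, against a median of 52.4% over all windows. A match of letters describes the window only, and a missing match says nothing about binding elsewhere.

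Tnc (ENSMUSG00000028364, chromosome 4, 63959785 to 64047015, GRCm38) had 1562, 1224 and 1106 TPM in wild-type libraries 1, 2 and 3. R206H libraries 1, 2 and 3 had 1285, 1328 and 1278 TPM. The R206H values lay inside the wild-type range, with wild-type library 1 the highest of the 6 and wild-type library 3 the lowest. The means were 1297 ± 237 TPM in wild type and 1297 ± 27.1 in R206H (SD, n = 3). The log2 difference, R206H minus wild type on log2(TPM + 1), was 0.02 (SE 0.121) and did not pass the threshold. Tnc ranked 92nd of all genes by mean TPM. With 49191 to 64364 estimated reads per library its values carry little counting error. A noncoding gene on the other strand, 8030451A03Rik, overlaps Tnc and had 5.12 ± 0.551 TPM in wild type and 4.24 ± 0.709 in R206H, and its reads cannot be told apart from those of Tnc without the strand setting.

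Tnn (ENSMUSG00000026725, chromosome 1, 160085029 to 160153580) had 3.35, 3.66 and 1.63 TPM in wild-type libraries 1, 2 and 3. R206H libraries 1, 2 and 3 had 15.6, 32.2 and 63.1 TPM. The lowest R206H value was 4.27 times the highest wild-type value, and the R206H libraries themselves differed by up to 4.04 times. The means were 2.88 ± 1.09 and 37 ± 24.1 TPM (SD, n = 3), with a log2 difference of 3.12 (SE 0.474). The ratio of means, 12.8, was 8.30 without R206H library 3, the highest, and 16.5 without R206H library 1. The wild-type values rest on 92, 144 and 59 estimated reads and the R206H values on 531, 893 and 2088.

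Tnn lies on chromosome 1 with Tnr, and the protein-coding genes on either side of Tnn did not pass the threshold. On the lower-coordinate side, 4.8 kb away, 4930523C07Rik had a log2 difference of 0.19 (SE 0.172, limma adjusted p = 0.519). On the other side, 41.6 kb away, Mrps14, a mitochondrial ribosomal protein gene, had -0.02 (SE 0.105, limma adjusted p = 0.915). No annotated gene overlaps Tnn.

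Tnxb (ENSMUSG00000033327, chromosome 17, 34670535 to 34719815) had 1.56, 0.811 and 0.935 TPM in wild-type libraries 1, 2 and 3. R206H libraries 1, 2 and 3 had 1.09, 0.447 and 0.663 TPM. The groups overlapped, with library 1 the highest in each genotype. The means were 1.10 ± 0.403 and 0.734 ± 0.329 TPM (SD, n = 3). Estimated reads were 90, 67 and 71 in wild type and 78, 26 and 46 in R206H. Only 2 of 6 libraries reached 1 TPM, so Tnxb was not tested. The flanking genes Atf6b, a transcription factor of the unfolded protein response, and C4b, a complement component, had log2 differences of 0.08 and 0.05 that did not pass (limma adjusted p = 0.543 and 0.957).

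Tnr (ENSMUSG00000015829, chromosome 1, 159523769 to 159931729) was at the limit of detection. Its values correspond to 1, 3 and 0 estimated reads in wild-type libraries 1, 2 and 3 and to 0, 5 and 5 in R206H libraries 1, 2 and 3. In TPM these were 0.0165, 0.0345 and 0, then 0, 0.0816 and 0.0683. A count of 0 allows up to 3 reads, which is 0.0375 TPM in wild-type library 3 and 0.0399 in R206H library 1, for counting error only. No difference was detectable at this depth.

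Of the fasciclin genes, Tgfbi (ENSMUSG00000035493, chromosome 13, 56609523 to 56639562) had 72.3, 73.9 and 62.3 TPM in wild-type libraries 1, 2 and 3. R206H libraries 1, 2 and 3 had 175.3, 264.5 and 384.8 TPM. Every R206H library was at least 2.37 times the highest wild-type library, and the wild-type libraries were close together while the R206H libraries were spread. The means were 69.5 ± 6.29 and 274.8 ± 105 TPM (SD, n = 3), with a log2 difference of 1.90 (SE 0.256). The ratio of means was 3.95, or between 3.16 without R206H library 3 and 4.67 without R206H library 1. Its neighbour Smad5, which encodes a transducer of BMP signals and lies 63.4 kb away, had 33 ± 3.14 and 35.9 ± 2.91 TPM and did not pass (log2 difference 0.12, SE 0.0945, limma adjusted p = 0.461).

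Postn (ENSMUSG00000027750, chromosome 3, 54361109 to 54391037) had 116.5, 77.8 and 79.4 TPM in wild-type libraries 1, 2 and 3. R206H libraries 1, 2 and 3 had 145.3, 180.5 and 167.01 TPM. The groups did not overlap, though R206H library 1 was only 1.25 times wild-type library 1. The means were 91.2 ± 21.9 and 164.3 ± 17.8 TPM (SD, n = 3), with a log2 difference of 0.86 (SE 0.163), short of the threshold. Unlike Tnn and Tgfbi, the R206H libraries of Postn were close together, the highest being 1.24 times the lowest. The nearest gene upstream, Trpc4, was at 0.244 ± 0.177 and 0.487 ± 0.123 TPM, and Supt20, 301.8 kb downstream, did not pass (log2 difference 0.22, limma adjusted p = 0.105).

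The 2 calls depended on which libraries were in the fit. With limma, neither Tnn nor Tgfbi passed when library 2 or library 3 of either genotype was left out, and Tgfbi but not Tnn passed without wild-type library 1. Both passed without R206H library 1, and Postn passed as well without that library or without wild-type library 1. The number of genes called over the whole table moved too, from 303 with all 6 libraries. It was 0 without R206H library 2, 0 without R206H library 3, 4 without wild-type library 2 and 1 without wild-type library 3. Without R206H library 1 it was 729, and without wild-type library 1 it was 292. limma voom on estimated reads called Tnn, Tgfbi and Postn, where 8.73% of 14785 genes were called, 4.61% higher and 4.12% lower.

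**Figure D1:**
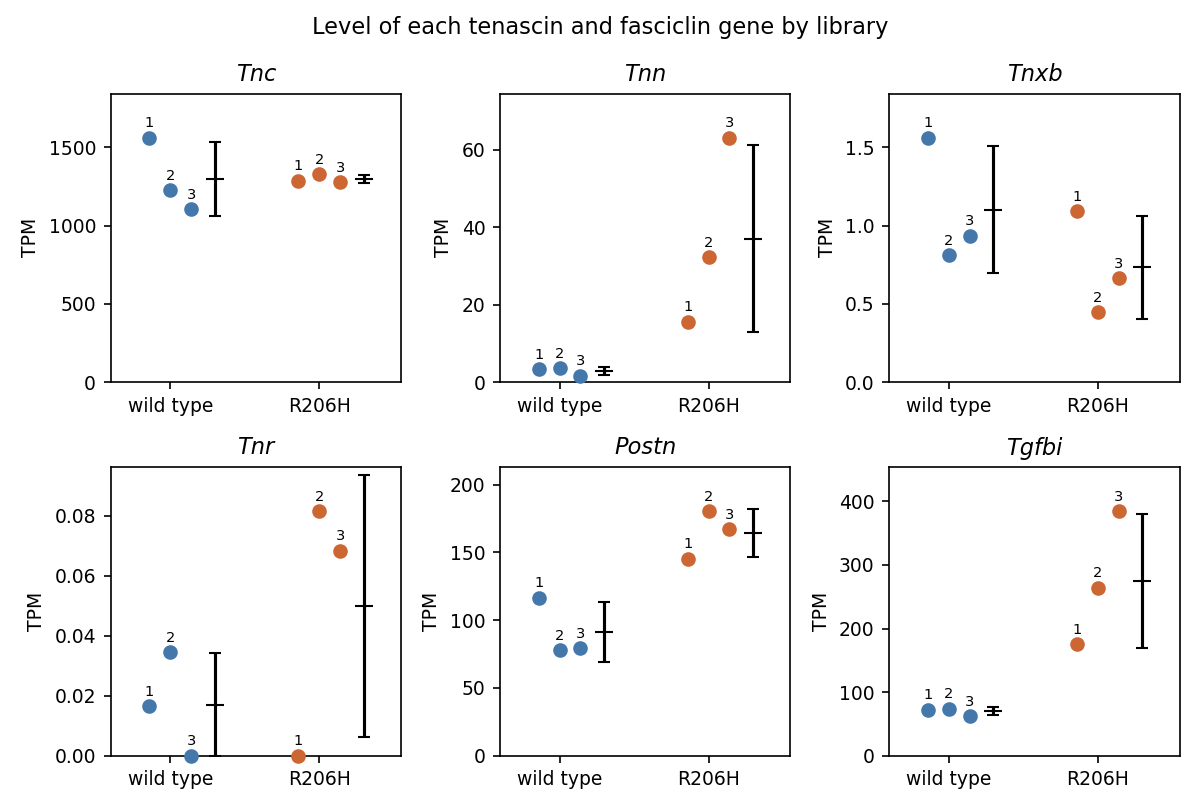
Level in TPM (vertical axes, from 0, on a different scale in each panel) of the 6 genes in wild-type (blue) and R206H (orange) libraries, numbered 1 to 3, with the mean and SD as black bars (n = 3). Tnn, Postn and Tgfbi have all R206H points above all wild-type points, Tnc, Tnxb and Tnr overlap, and Tnr stays at or under 0.0816 TPM.

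The 2 families differed in how their total moved. The 4 tenascins summed to 1301 ± 238 TPM in wild type and 1335 ± 30.1 in R206H, with overlapping ranges, and Tnc made up 99.7% ± 0.0682 and 97.2% ± 1.77 of them (SD, n = 3). The share of Tnn in the tenascin sum was 0.214%, 0.298% and 0.147% in wild-type libraries 1, 2 and 3. In R206H libraries 1, 2 and 3 it was 1.20%, 2.37% and 4.70%. In each R206H library the share was above that of every wild-type library, and Tnc stayed between 20.2 and 82.4 times Tnn. Postn and Tgfbi together summed to 160.7 ± 24.9 TPM in wild type and 439.1 ± 116 in R206H.

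The order of the levels also differed between the genotypes at 1 place. In wild type it was Tnc, Postn, Tgfbi, Tnn, Tnxb and Tnr, and no neighbours overlapped, though the lowest Postn value (77.8 TPM) and the highest Tgfbi value (73.9) were close, as were the lowest Tnn (1.63) and the highest Tnxb (1.56). In R206H the mean of Tgfbi was above that of Postn, but the lowest Tgfbi library (175.3 TPM) was below the highest Postn library (180.5), so these neighbours overlapped. Compared within each library, Tgfbi was below Postn in all 3 wild-type libraries, at 0.621, 0.949 and 0.785 times Postn. It was above Postn in all 3 R206H libraries, at 1.21, 1.46 and 2.30 times. These ratios within a library do not depend on the scaling of the libraries. They do depend on the gene lengths behind the TPM, which were not given. In estimated reads Postn stayed above Tgfbi in every library. R206H libraries 1, 2 and 3 had 7395, 7486 and 8264 reads of Postn against 3865, 4752 and 8250 of Tgfbi. The place of Tgfbi above Postn in R206H therefore rests on the lengths used.

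**Figure D2:**
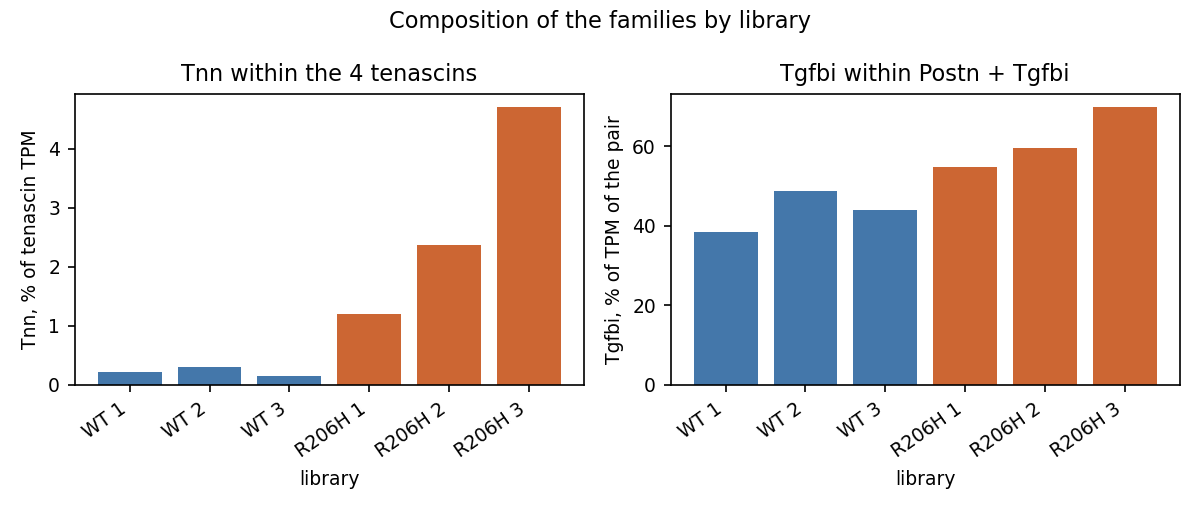
Bars from 0 show, for each of the 6 libraries, Tnn as a percentage of the summed TPM of the 4 tenascins (left) and Tgfbi as a percentage of Postn plus Tgfbi (right), with wild type (WT) in blue and R206H in orange. Tnn runs from 0.147% to 0.298% in wild type and from 1.20% to 4.70% in R206H, and Tgfbi from 38.3% to 48.7% and from 54.7% to 69.7%.

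Tnn and Tgfbi ordered the 6 libraries identically: wild-type 3, 1 and 2, then R206H 1, 2 and 3, from low to high. This order was shared by 196 of 14818 genes tested, or 1.32%. It places every R206H library above wild type, as 2652 of the genes tested did, so 1.32% understates how common it is among such genes. Postn and Tnc each had another order. The same R206H order, 1, 2, 3, appeared in the scores on the first principal component of all tested genes, which were 7.24, 20.7 and 39.5, against -29.1 to -18 in wild type. That component held 40.8% of the variance and also separates the genotypes, and its relation to the spread of Tnn and Tgfbi was not tested.

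For each tested gene the 3 nearest profiles were found among 10211 named genes with a mean of at least 5 TPM, as the smallest root mean square difference in centred log2(TPM + 1) over the 6 libraries. Nearest to Tnn were the proteoglycan gene Aspn (0.343), the chemokine gene Cxcl14 (0.428) and the lubricin gene Prg4 (0.436), in log2 units, and Tgfbi ranked 7th at 0.682. For Aspn the R206H libraries 1, 2 and 3 had 37.8, 67 and 93.2 TPM, and the wild-type ones 10.9, 11.1 and 7.03. Nearest to Tgfbi were the growth factor gene Ptn (0.178), the T-type calcium channel gene Cacna1h (0.199) and the Wnt ligand gene Wnt16 (0.239). Seen from Tgfbi, Postn ranked only 207th (0.613) and Tnn 328th (0.682). The wild-type libraries had 59.7, 84.9 and 54.3 TPM of Ptn and the R206H libraries 178.1, 219.1 and 322.1.

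Postn was followed most closely by Aplp1 (0.0746), a relative of the amyloid precursor gene, by the kinase gene Dmpk (0.0925) and by Trim46 (0.113), a gene of the tripartite motif family. Tnc was followed by Rnf169 (0.0412), a ubiquitin pathway gene, by Gtf2a1 (0.0446), a subunit of the general factor TFIIA, and by Asrgl1 (0.0464), an asparaginase. Tnc lay 1.67 log2 units from Tnn.

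**Figure D3:**
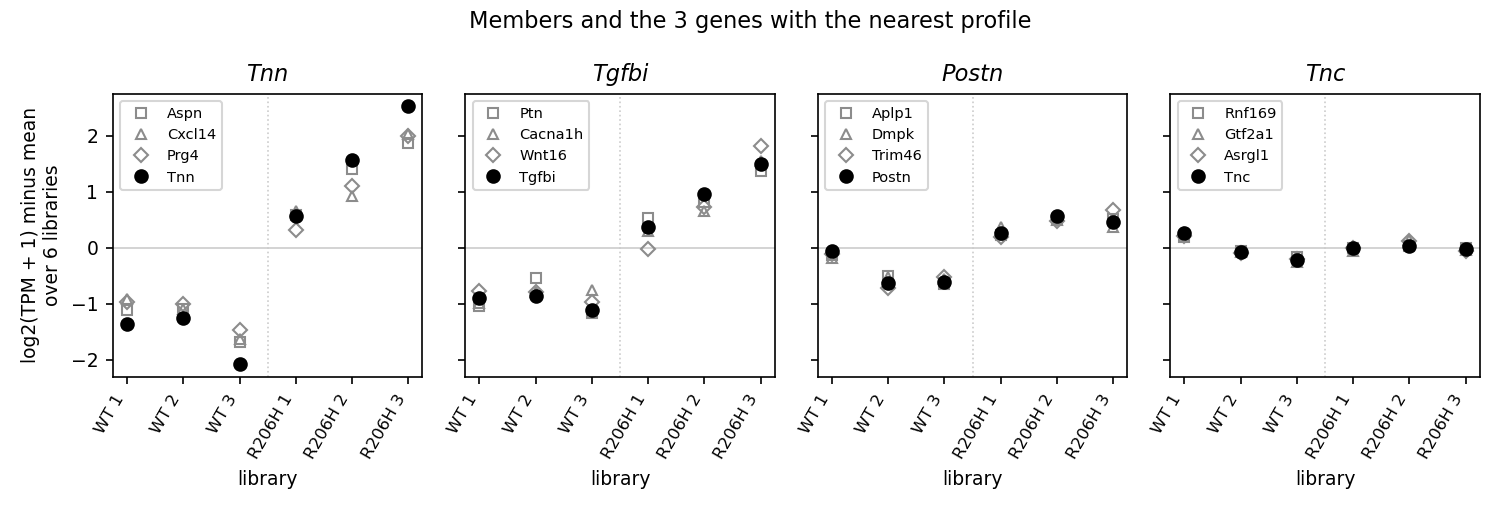
log2(TPM + 1) minus its mean over the 6 libraries (vertical axis) in each library (horizontal axis, WT for wild type) for Tnn, Tgfbi, Postn and Tnc (filled circles) and the 3 genes with the smallest root mean square difference from each (open symbols). Tnn and Tgfbi are lowest in wild-type library 3 and highest in R206H library 3, Postn is highest in R206H library 2, and Tnc stays near 0.

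The other mouse genes with fasciclin domains encode the scavenger receptors stabilin-1 and stabilin-2 of endothelial cells and macrophages. Stab1 had 2.22 ± 0.643 TPM in wild type and 2.46 ± 0.795 in R206H (SD, n = 3) and did not pass (log2 difference 0.09, SE 0.251, limma adjusted p = 0.847). Stab2 stayed under 1 TPM in all libraries and was not tested.

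Genes that work with these matrix proteins were taken from lists of receptors, matrix partners, upstream regulators and proteases and tested with all other genes. Across all genes tested, limma called 2.04%, 1.26% higher and 0.79% lower, and the median log2 difference was 0.02.

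The receptor list was drawn up for tenascins, periostin and TGFBI, and the binding of each product to them was not checked here. Of its 19 tested genes, 1 was higher, 1 was lower and 17 did not pass, and the median log2 difference was -0.04. Itga11, the alpha chain of a collagen-binding integrin of mesenchymal cells, was 2.21 times higher, at 31.5, 33.3 and 31.5 TPM in R206H libraries 1, 2 and 3 against 18.8, 11.6 and 13.2 in wild type (log2 difference 1.12, SE 0.160, limma adjusted p = 0.0454). Itga3, whose product pairs with the beta1 chain as a laminin receptor and also binds TGFBI, was lower, at 90.9, 80.5 and 56.1 TPM against 151, 126.9 and 157 (log2 difference -0.95, SE 0.176, limma adjusted p = 0.0498). Neither gene overlapped between the genotypes. Itga9 and Itga8, alpha chains of integrins that bind tenascin-C and tenascin-W, had log2 differences of 0.55 and 0.46 that did not pass (limma adjusted p = 0.0736 and 0.0776). The receptor list had values in both directions, 8 positive and 11 negative.

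Among 19 tested matrix partners, 3 were higher, none was lower and 16 did not pass. The median log2 difference was 0.59 against 0.02 over all genes tested, and 18 of the 19 values were positive. The proteoglycan gene Bgn had 774, 805 and 733 TPM in wild-type libraries 1, 2 and 3, against 1013, 1120 and 1164 in the R206H ones (log2 difference 0.51, SE 0.0701, limma adjusted p = 0.0417). Col6a1, a chain of the beaded-filament collagen VI, was 2.10 times higher (log2 difference 1.06, SE 0.168, limma adjusted p = 0.0463). Col5a1, a chain of a collagen that nucleates fibrils, was 1.86 times higher (log2 difference 0.89, SE 0.150, limma adjusted p = 0.0476). Col6a2 had 1.20 and did not pass (limma adjusted p = 0.0508). R206H lay above wild type in every library for 14 of these 19 genes, against 17.9% of all genes. The list counts 3 called with all libraries, 10 without wild-type library 1 and 7 without R206H library 1. Over all genes tested, these fits called 303 of 14818, 292 of 14464 and 729 of 14510. None of the list was called without library 2 or 3 of either genotype, where 0 to 4 of all genes tested were. There 13 to 14 of the list had an unadjusted limma p under 0.05, against 2522 to 3048 of 14464 to 14510 genes tested.

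Of 24 signals and factors known to act on these genes, 2 were higher, none was lower and 22 did not pass, with a median log2 difference of 0.14. The ligand gene Tgfb3 had 150.1, 154 and 128.8 TPM in wild-type libraries 1, 2 and 3, against 216, 253.2 and 258.1 in the R206H ones (log2 difference 0.74, SE 0.0957, limma adjusted p = 0.0402). The ligand gene Bmp4 was 2.13 times higher (log2 difference 1.08, SE 0.159, limma adjusted p = 0.0454). The transcription factor gene Ets1 and the gene of the actin-regulated coactivator MRTF-A, listed as Mkl1, had log2 differences of -0.63 and 0.29 that did not pass (limma adjusted p = 0.0511 and 0.0593).

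Of 7 tested proteases reported to cut tenascins, periostin or their partners, 1 was lower and 6 did not pass. The collagenase gene Mmp13 had 25.3, 29.5 and 28.1 TPM in wild-type libraries 1, 2 and 3, against 7.68, 14.7 and 12.5 in the R206H ones (log2 difference -1.22, SE 0.210, limma adjusted p = 0.0476). Mmp14, Mmp2 and Adamts4 had log2 differences of 0.43, 0.70 and 1.02 that did not pass (limma adjusted p = 0.0741, 0.0873 and 0.107). The receptor, upstream and protease lists also had no gene called by limma without library 2 or 3 of either genotype. In these fits 7 to 8, 11 to 12 and 4 to 5 of their genes had an unadjusted p under 0.05. Of all genes tested, 0 to 4 were called there, and 2522 to 3048 of 14464 to 14510 had an unadjusted p under 0.05. Without wild-type library 1, Itga3 and Mmp13 did not pass, 2 other proteases were called higher and 4 upstream genes were called. Without R206H library 1, 5 upstream genes were called. Over the whole table, 292 of 14464 genes were called without wild-type library 1 and 729 of 14510 without R206H library 1.

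**Figure D4:**
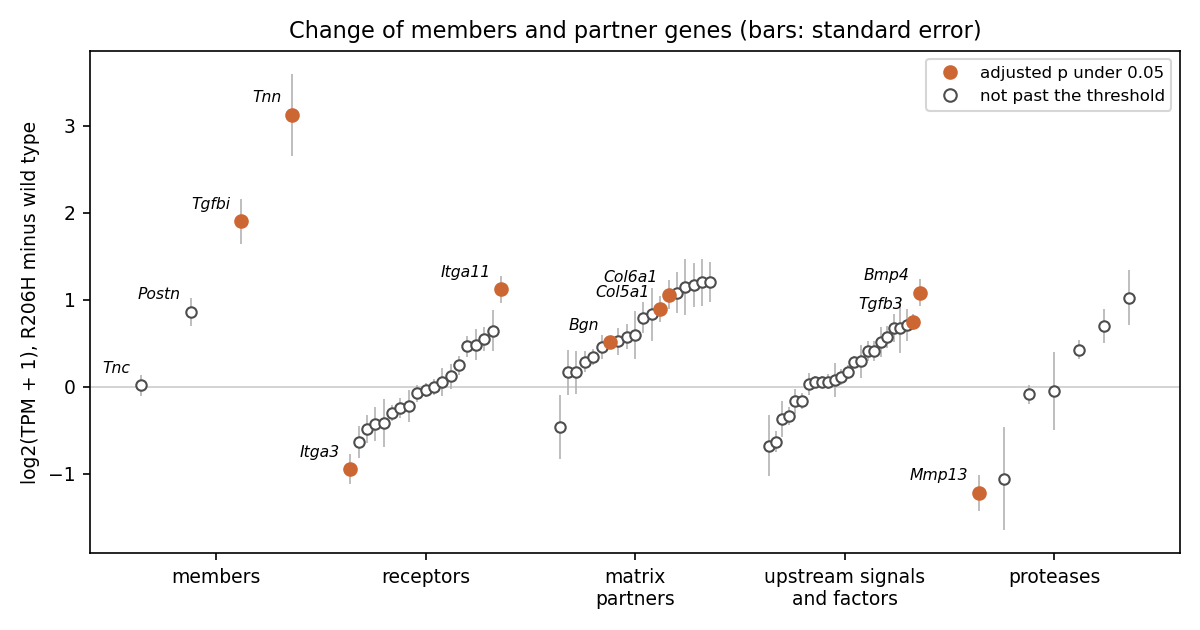
log2 difference, R206H minus wild type on log2(TPM + 1) (vertical axis), with its SE for the 4 tested tenascin and fasciclin genes and the tested genes of 4 partner lists (horizontal axis, sorted within a list), filled orange where the adjusted p was under 0.05. The values of matrix partners are mostly positive, with a median of 0.59, and those of receptors lie on both sides of 0, from -0.95 to 1.12.

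The libraries held 17490500 to 24560000 estimated reads. All 10 fibroblast markers were expressed, and they summed to 7173 to 9340 TPM in wild type and 10939 to 13504 in R206H, which includes the collagen genes of the matrix list. None of the 10 passed by limma, and 7 were higher by limma voom, which called 4.61% of all genes higher. Of their log2 differences 9 were positive and 1 negative. Col1a1 had means of 2214 TPM in wild type and 4881 in R206H, while Vim had 3203 and 3117. Vim, Dcn and Lum overlapped between the genotypes. Epithelial markers summed to 512.3 to 551.8 TPM in wild type and 367.5, 278.1 and 177.7 in R206H libraries 1, 2 and 3, the reverse of the order of Tnn and Tgfbi in those libraries, with 2 of 8 tested markers called lower and none higher. Over all genes tested, limma called 1.26% higher and 0.79% lower. Tendon markers summed to 71.3 to 72 TPM in wild type and 119.5 to 168.3 in R206H (2 of 5 called higher). These 2 were Fmod, with means of 7.12 TPM in wild type and 44 in R206H, and Tnmd, with 18.9 and 48.4. Mkx, Thbs4 and Scx had log2 differences of 0.64, 0.14 and 0.08 that did not pass. Osteoblast markers summed to 2002 to 2326 TPM in wild type and 1788 to 1948 in R206H. Of the osteoblast sum, Spp1 alone made up 2086 ± 138 and 1832 ± 71.6 TPM (SD, n = 3), while the median log2 difference of the 7 tested osteoblast markers was -1.07. None of the 7 passed by limma and 1 was lower by limma voom. At an unadjusted limma p under 0.05, Runx2 was positive (log2 difference 0.41) and Ibsp, Ifitm5, Alpl, Bglap and Spp1 were negative (-3.48, -1.29, -1.18, -1.07 and -0.19). Ibsp, a bone matrix protein gene, had 21.5, 69.9 and 59 TPM in wild-type libraries 1, 2 and 3, against 0.331, 14 and 2.47 in the R206H ones. Neural and glial markers, of interest for Tnr, summed to 90 to 95.4 TPM in wild type and 104.6 to 117.8 in R206H, with the oligodendrocyte genes Olig1 and Olig2 under 1 TPM in all libraries. The sums of chondrocyte, endothelial, macrophage, mesothelial and skeletal muscle markers came to at most 706.1 TPM, that of skeletal muscle in R206H library 1. Chondrocyte markers summed to 150.8 to 342.4 TPM in wild type and 227 to 338.3 in R206H. Most of this was Col2a1, with means of 193.7 and 226.8 TPM. Of the 6 tested chondrocyte markers none passed, 2 log2 differences were positive and 4 negative, and the median was -0.85. Mesothelial markers summed to 128.8 to 168.9 TPM in wild type and to 142.7, 93.6 and 45.5 in R206H libraries 1, 2 and 3, with 1 of 5 called lower. This was Msln, with means of 104 TPM in wild type and 41.7 in R206H. Upk3b, Upk1b, Wt1 and Lrrn4 overlapped between the genotypes, with log2 differences of 0.28, -0.50, 0.17 and -0.06. Endothelial markers summed to 13.8 to 30.5 and 8.19 to 13.6 TPM. Endothelial, macrophage and skeletal muscle sums fell from R206H library 1 to 2 to 3, as did the epithelial and mesothelial ones. They were 13.6, 11 and 8.19 TPM, then 108.3, 84.6 and 46.2, then 706.1, 498.8 and 338.9. Fibroblast, tendon and neural and glial sums rose in that order, and osteoblast and chondrocyte sums did neither. The part of these marker differences in the values of Tnn, Tgfbi, Postn and the matrix partners was not tested. In RNA from whole cultures, more cells of a type and more RNA per cell cannot be told apart.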

How the data were processed

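RNA of 6 mouse embryonic fibroblast cultures was depleted of ribosomal RNA and read as 150 bp pairs, per the labels' protocols. The authors deposited TPM values, which sum to 1000000 in each library. The submitters' processing notes list DESeq2, featureCounts, STAR, Subread and Trimmomatic, without roles or versions, and 2 build names, GRCm38 and mm10. The annotation, gene lengths and strand setting behind the values were not given in the sources used here. Each TPM is a share, so abundant transcripts lower all others.

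Genes reaching 1 TPM in 3 or more libraries were fitted on log2(TPM + 1) with limma 3.58.1 (R 4.3.3, mean-variance trend, no covariate, two-sided, Benjamini-Hochberg over all genes tested, threshold 0.05), which understates changes of low genes. Reads were estimated as TPM times GENCODE M21 exon-union length over the value of 1 read. The estimate was within 0.05 of a whole number for 91.1% to 91.4% of non-zero values under 100 reads, and limma voom was run on it as an alternative chosen after seeing the data. The fits were also run on simulated data with known changes, where limma missed many of the smallest changes and called some unchanged genes, more than limma voom did. p-values measure the spread between these cultures.

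The genes and lists were chosen with earlier results of these data known. The text names all 6 genes, up to 4 tested genes of each list by smallest unadjusted p, 3 nearest profiles per tested gene and genomic neighbours. Stab2, Olig1, Olig2 and the fibroblast, osteoblast, tendon, mesothelial and chondrocyte markers were named after their values were seen. Nov, Mkl1 and Mkl2 stand for list genes under older symbols. Same-numbered libraries of the genotypes did not deviate together, so the numbers were not used as pairs. Tables were joined in Python 3.11.15 (pandas 2.3.3), and plots were drawn with matplotlib 3.10.9.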

Additional observations from a re-analysis of the deposited data

How the results depend on the processing

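In all 17 alternatives Tnn, Tgfbi and Postn stayed positive, at log2 2.26 to 3.62, 1.62 to 2.19 and 0.76 to 1.05. Tnn passed the threshold in 9, Tgfbi in 10 and Postn in 7. Tnc ran from -0.09 to 0.16, with 12 values positive and 5 negative, and never passed. The one log2 value that moved beyond the replicate spread was Tnn with a pseudocount of 5 (2.26).

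The number of genes called over the whole table (303) was 587 with a filter at TPM 5, 1906 with library weights, 27 without the limma trend, 2 with no filter, 129 with a pseudocount of 0.1, 200 with quantile normalization and 1290 with limma voom. In the same fits, matrix partners called (3) numbered 6 with the TPM 5 filter, 13 with weights and 11 with voom. Upstream genes (2) numbered 5, 8 and 8 in these 3 fits. Receptors (2) numbered 6 with weights and with voom, and 1 with quantile normalization and with pseudocounts of 0.1 and 5. Proteases (1) numbered 4 with weights and with voom, and 0 with a pseudocount of 0.1. Without the trend and with no filter, none of the 4 lists and none of the tenascin or fasciclin genes had a call (0 each), while 3515 and 4315 genes had an unadjusted limma p under 0.05.

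With the replicate number as a block, limma called 0 genes, so 0 of the tenascin and fasciclin genes and 0 in each list, with 3301 genes at an unadjusted p under 0.05. Deviations of same-numbered libraries correlated across genes at 0.02, 0.06 and -0.03, so the numbers are not shown to pair the libraries.

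With each library left out in turn, genes called ran from 0 to 729, tenascin and fasciclin genes called from 0 to 3, matrix partners from 0 to 10, upstream genes from 0 to 5, receptors from 0 to 3 and proteases from 0 to 2. The 0 values came without R206H library 2 and R206H library 3, where 3048 and 2765 genes had an unadjusted limma p under 0.05, and the lists and the tenascin and fasciclin genes also had 0 without wild-type libraries 2 and 3 (2789 and 2522 genes at an unadjusted p under 0.05). The difference in the Tgfbi share of Postn plus Tgfbi was 17.6 percentage points, and 13.4 to 20.9 with a library left out. That in the Tnn share of tenascins was 2.54, and 1.56 to 3.32. The causes were not tested. Depth limits Tnr most (0 to 5 estimated reads), and Tnxb and wild-type Tnn rest on 26 to 90 and 59 to 144.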
